A study of Arabidopsis thaliana with 12 samples.

Results

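Genes of jasmonate synthesis, signalling and output, with the MYB genes through which jasmonate acts in stamens, were followed in inflorescences of Arabidopsis thaliana. The 38 genes were listed by name for their place in the pathway, out of 33610 genes with a value in FPKM, a measure of transcript level corrected for transcript length and library size. They comprise 13 genes of synthesis, 6 of conjugation, perception and transcription, 10 JAZ repressor genes, 5 genes at the loci of stamen MYB factors and 4 outputs. The plants carried an artificial miRNA against SEAP1 (amiR-SEAP1, 4 mRNA libraries) or were wild type (WT, 4 mRNA libraries). Both genotypes were of the Columbia (Col) ecotype and were grown untreated at 22 °C with 16 h of light and 8 h of dark. An artificial miRNA is a designed small RNA expressed in the plant to lower 1 chosen transcript. SEAP1 matched no symbol or synonym in the gene table, so the targeted transcript is not analysed here, and the labels do not give the number of transgenic lines or the promoter of the transgene.

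Jasmonate is made from linolenic acid, which a lipase releases in the chloroplast. A lipoxygenase, allene oxide synthase and allene oxide cyclase convert it there, and an oxophytodienoate reductase and beta-oxidation in the peroxisome complete the hormone. JAR1 couples the hormone to isoleucine. The conjugate joins the F-box protein COI1 to JAZ repressors, whose loss frees MYC and MYB factors to act. In Arabidopsis flowers this pathway is needed for filament elongation, anther opening and pollen maturation, and mutants that cannot make or perceive the hormone are male sterile.

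The 8 mRNA libraries fell into pairs that share a name in the file headers. Replicates 1 and 2 of each genotype carried the name FLW and replicates 3 and 4 the name AI, whose meanings the labels do not give. The header names of the amiR-SEAP1 columns begin with R15 in the FLW set and hold R155 in the AI set. Libraries of a pair differed by a median coefficient of variation of 1.07% to 1.31% among the 1226 genes of at least 100 FPKM, against 10.4% in amiR-SEAP1 and 15.2% in WT between the sets. Each pair was therefore counted as 1 sample, and every mean ± SD covers n = 2 pairs. The libraries held 680667 to 715611 FPKM in all, and the steps between low values put their depths within a factor of 1.17. No read total is given in the sources used here.

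The WT libraries of the AI set stood apart in genes of the circadian clock. CCA1, a morning transcription factor of the clock, lay at 12.7 and 13.1 FPKM in WT replicates 3 and 4, against 54.6 to 58.8 FPKM in the other 6 libraries. PRR5, which is expressed later in the day, lay at 40.3 and 40.0 FPKM in the same WT libraries and at 3.80 to 4.53 FPKM in the others. ELF4, an evening gene, lay at 28.0 and 29.8 FPKM there, against 0.882 to 2.18 FPKM. Of the 10 clock genes examined, 8 separated this pair from the other 3 by more than the range of those 3. The median difference of the clock genes, amiR-SEAP1 minus WT on the log2(FPKM + 1) scale, was -0.03 in the FLW set and -0.77 in the AI set. Within the AI set, genotype and the state of the clock genes cannot be told apart, so differences are given by set.

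Across both sets, no member passed limma's test at an FDR of 0.05 when paired libraries were modelled as correlated without a term for the set. Other models, given below, differed in the members called. Most members lay lower in amiR-SEAP1 than in WT. Of the 38 members, 36 reached a mean of 1 FPKM over the 8 libraries and were tested, whereas DAD1 and MYC5 did not. Limma, with paired libraries modelled as correlated, called 0 members higher and 0 lower, where it called 0.231% of all 20743 tested genes higher and 0.0820% lower. Before adjustment, 3 members were higher and 9 lower with a p under 0.05, against 4.96% and 4.69% of all genes. On the mean of each pair limma called 0 of all tested genes in each direction, and 2 members lay higher (3.34% of all genes) and 3 lower (2.69%) with an unadjusted p below 0.05. Without the WT libraries of the AI set the correlated model also called 0 members in each direction (0.116% of all genes higher and 0.0241% lower), and 5 lay higher and 5 lower before adjustment (5.68% and 5.78%). With the 8 libraries taken as independent, which treats both libraries of a pair as separate samples, limma called 3 members higher (LOX3, AOC1 and THI2.2) and 6 lower (AOS, MYC2, JAZ2, JAZ12, MYB21 and AT3G27809), against 7.50% and 4.70% of all genes. With the replicate number as a block and libraries as independent it called 4 higher and 12 lower (13.7% and 11.1% of all genes). With the set as a term beside the pair correlation it called 3 higher and 13 lower (7.44% and 7.59%). Whether libraries were made from different plants is not stated, so each p covers the spread among these libraries alone. Within a pair that spread may be technical. In the models without a term for the set or the replicate number, it includes the difference between the sets.

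All 4 amiR-SEAP1 libraries lay below all 4 WT libraries for 12 of the 36 tested members (33.3%), and above them for 3 (8.33%). Among all tested genes these shares were 9.56% and 14.8%. Without the WT libraries of the AI set, the 4 amiR-SEAP1 libraries lay below both remaining WT libraries for 17 members and above them for 8, against 24.0% and 25.5% of all genes. The median log2 difference of the members was -0.14 in the FLW set and -0.24 in the AI set, while that of all tested genes was -0.00271 and 0.06. In the FLW set both amiR-SEAP1 libraries were below both WT libraries for 22 members and above them for 9 (38.2% and 37.4% of all genes), and in the AI set for 25 and 9 (33.8% and 48.7%). The direction was the same in both sets for 19 members downward (19.9% of all genes) and 5 upward (25.7%). In bulk tissue, fewer cells of a type and less RNA per cell cannot be told apart.

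**Figure D1:**
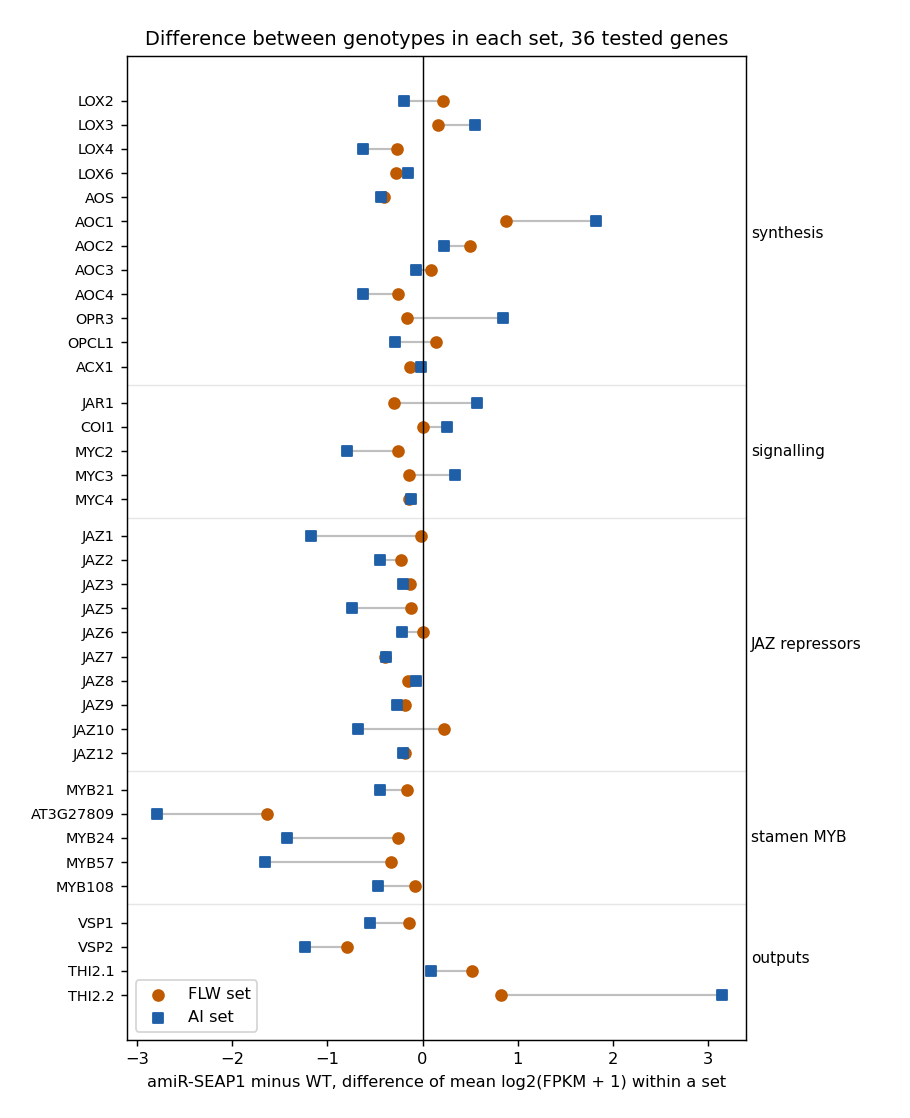
Difference between the genotypes (amiR-SEAP1 minus WT, mean log2(FPKM + 1) of a pair of libraries) in the FLW set (circles) and the AI set (squares) for the 36 tested members, grouped by role, with a grey line between the sets. All 10 JAZ genes and all 5 genes at stamen MYB loci lie below 0 in the AI set, and AOC1 and THI2.2 lie furthest above 0.

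At the head of the synthesis route, DAD1 (AT2G44810), the lipase of stamens that starts jasmonate synthesis in flowers, was barely detected. Its level was 0.164, 0.151, 0.216 and 0.0619 FPKM in amiR-SEAP1 replicates 1 to 4, against 0.0403, 0.0660, 0.186 and 0.146 FPKM in WT replicates 1 to 4, below the 1 FPKM needed for the test. The genotypes overlapped, and no change can be read at this level.

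The lipoxygenase genes, whose products oxygenate linolenic acid in the chloroplast, differed in direction. LOX3 (AT1G17420), one of a pair of lipoxygenase genes that male fertility requires, lay at 15.8, 15.7, 19.5 and 19.7 FPKM in amiR-SEAP1 replicates 1 to 4, against 13.8, 14.2, 13.2 and 12.9 FPKM in WT replicates 1 to 4. Every amiR-SEAP1 library was above every WT library, with means of 17.7 ± 2.77 FPKM in amiR-SEAP1 and 13.5 ± 0.656 FPKM in WT (SD, n = 2 sets each). The log2 difference was 0.16 in the FLW set and 0.56 in the AI set, and the log2 change of 0.36 ± 0.13 (SE) had an adjusted p of 0.388 in limma with the pair correlation and of 0.0382 in limma with independent libraries. LOX4 (AT1G72520), its partner in that pair, was lower in amiR-SEAP1 within both sets, with means of 3.29 ± 0.768 FPKM in amiR-SEAP1 and 4.97 ± 2.06 FPKM in WT (SD, n = 2 sets each). In the FLW set its pair means were 2.75 FPKM in amiR-SEAP1 and 3.52 FPKM in WT, and in the AI set they were 3.83 FPKM in amiR-SEAP1 and 6.43 FPKM in WT.

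LOX2 (AT3G45140), the most abundant lipoxygenase gene in these inflorescences and the one linked to wounding in leaves, ranged over 229 to 475 FPKM. It was higher in the AI set than in the FLW set in both genotypes, and its genotype difference changed sign between the sets (0.21 in the FLW set and -0.20 in the AI set on the log2 scale). LOX6 (AT1G67560), which contributes to basal jasmonate, averaged 25.7 ± 2.80 FPKM in amiR-SEAP1 and 30.0 ± 5.11 FPKM in WT (SD, n = 2 sets each) and was lower in amiR-SEAP1 within both sets.

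AOS (AT5G42650), the single allene oxide synthase gene of this species, differed by a similar amount in both sets. It lay at 9.28, 9.19, 8.14 and 8.04 FPKM in amiR-SEAP1 replicates 1 to 4, against 12.7, 12.4, 11.8 and 10.8 FPKM in WT replicates 1 to 4. The groups did not overlap, and the ratio of amiR-SEAP1 to WT was 0.734 in the FLW set and 0.717 in the AI set. Its log2 change was -0.42 ± 0.15 (SE), with an adjusted p of 0.392 in limma with the pair correlation and of 0.0114 with independent libraries.

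The 4 allene oxide cyclase genes, whose enzyme sets the stereochemistry of the precursor, differed from each other. AOC1 (AT3G25760) lay at 7.49, 6.82, 11.3 and 10.9 FPKM in amiR-SEAP1 replicates 1 to 4, against 3.28, 3.58, 2.19 and 2.67 FPKM in WT replicates 1 to 4. All amiR-SEAP1 libraries were above all WT libraries, 2.08 times the WT level in the FLW set and 4.57 times in the AI set. Its log2 change of 1.35 ± 0.28 (SE) had an adjusted p of 0.103 in limma with the pair correlation and of 0.00461 with independent libraries. Without the WT libraries of the AI set the change was 1.17.

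AOC4 (AT1G13280), the most abundant of the cyclase genes here, was lower in amiR-SEAP1 in both sets, at 92.1 ± 4.74 FPKM in amiR-SEAP1 and 127 ± 29.0 FPKM in WT (SD, n = 2 sets each), and its groups did not overlap. AOC2 (AT3G25770) was higher in amiR-SEAP1 within both sets but overlapped across them, at 5.61 ± 2.24 FPKM in amiR-SEAP1 and 4.27 ± 2.44 FPKM in WT (SD, n = 2 sets each). AOC3 (AT3G25780) differed little, at 6.17 ± 0.198 FPKM in amiR-SEAP1 and 6.14 ± 0.775 FPKM in WT (SD, n = 2 sets each). Summed over the 4 genes, cyclase transcript was 107, 105, 120.4 and 119.6 FPKM in the amiR-SEAP1 libraries, against 118, 117.8, 161 and 164 FPKM in the WT libraries. AOC1 made up 6.49% to 9.38% of that sum in amiR-SEAP1 and 1.36% to 3.04% in WT, a small part of the family in both genotypes. AOC1, AOC2 and AOC3 are neighbouring genes of similar sequence, and how the authors' counting divided reads between them is not given in the sources used here.

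OPR3 (AT2G06050), the reductase gene without which stamens of Arabidopsis make too little jasmonate, differed within the pairs of the FLW set. It lay at 12.2, 28.7, 39.5 and 38.2 FPKM in amiR-SEAP1 replicates 1 to 4, against 14.2, 31.5, 19.6 and 22.8 FPKM in WT replicates 1 to 4. Replicates 1 and 2 differed by 2.35 times in amiR-SEAP1 and 2.21 times in WT, where 27 and 26 of all tested genes differed by 2-fold or more on the log2(FPKM + 1) scale. In the AI set both amiR-SEAP1 libraries were above both WT libraries. The pooled log2 change of 0.34 ± 1.19 (SE, limma's adjusted p = 0.971) is smaller than its error, and leaving out 1 library put it between 0.07 and 0.64 (lowest without amiR-SEAP1 replicate 2, highest without amiR-SEAP1 replicate 1). Of the later steps, OPCL1 (AT1G20510), a CoA ligase, averaged 14.2 ± 0.589 FPKM in amiR-SEAP1 and 15.1 ± 2.80 FPKM in WT (SD, n = 2 sets each). ACX1 (AT4G16760), an acyl-CoA oxidase of beta-oxidation, averaged 51.5 ± 2.76 FPKM in amiR-SEAP1 and 54.3 ± 0.205 FPKM in WT (SD, n = 2 sets each), and its groups did not overlap although they differed by only -0.13 and -0.02 on the log2 scale in the FLW and AI sets.

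**Figure D2:**
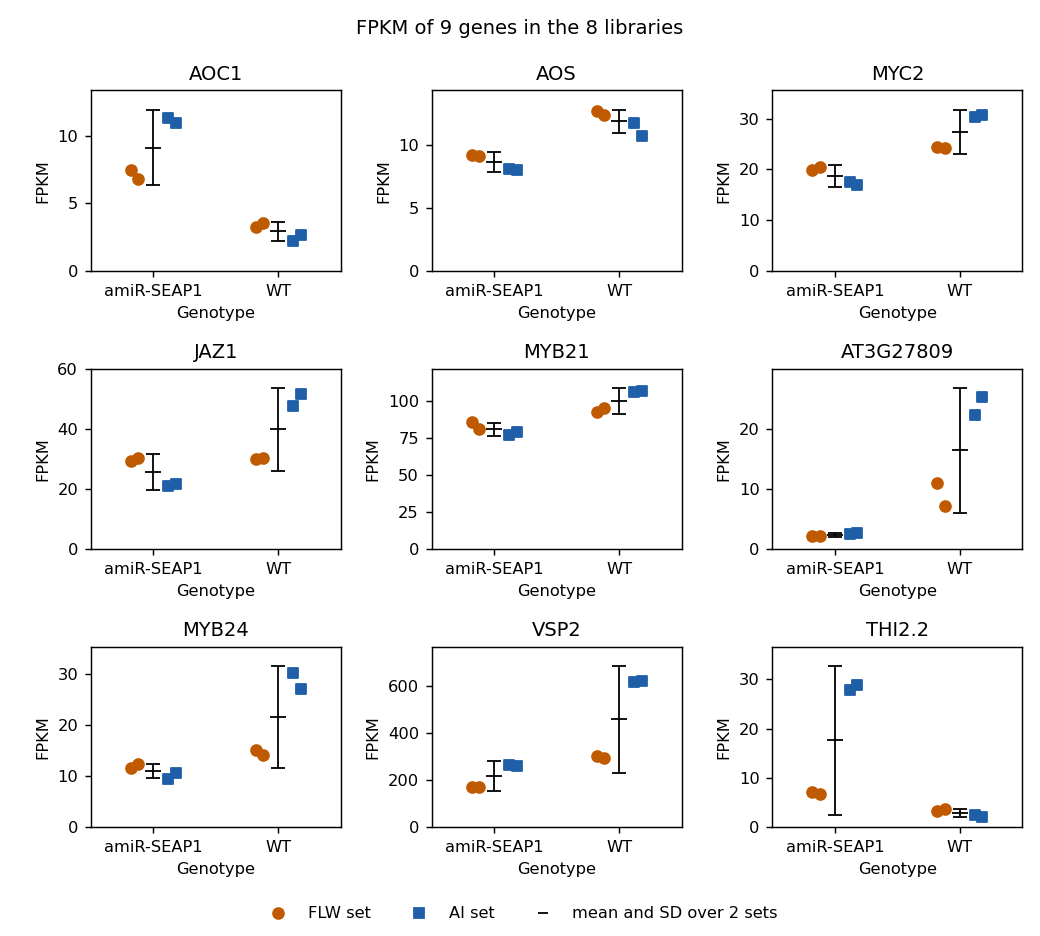
FPKM of 9 genes in each library (y axis, from 0), by genotype (x axis), with circles for the FLW set, squares for the AI set and black bars for the mean and SD over the 2 sets. In most panels the libraries of a pair lie close together, AT3G27809 stays near 2 to 3 FPKM in all amiR-SEAP1 libraries, and JAZ1 is highest in the WT libraries of the AI set.

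Among the 5 tested genes of conjugation, perception and transcription, MYC2 had the largest log2 change in size. MYC2 (AT1G32640), the main bHLH activator of jasmonate responses, lay at 19.8, 20.5, 17.4 and 16.8 FPKM in amiR-SEAP1 replicates 1 to 4, against 24.4, 24.3, 30.3 and 30.6 FPKM in WT replicates 1 to 4. The groups did not overlap, and amiR-SEAP1 was at 0.828 of the WT level in the FLW set and at 0.562 in the AI set. Its log2 change was -0.53 ± 0.14 (SE), with an adjusted p of 0.18 in limma with the pair correlation and of 0.0167 with independent libraries. AT1G32630 overlaps MYC2 by 3241 bases in the reference and lay at 5.38 to 7.10 FPKM in amiR-SEAP1 and 5.57 to 6.78 FPKM in WT. No source used here gives the strand setting of the authors' counting, so reads of the 2 genes may not have been told apart.

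The related activators had smaller pooled changes. MYC3 (AT5G46760) averaged 36.8 ± 2.40 FPKM in amiR-SEAP1 and 35.0 ± 10.6 FPKM in WT (SD, n = 2 sets each) and was lower in amiR-SEAP1 in the FLW set but higher in the AI set. MYC4 (AT4G17880), which acts with MYC2 and MYC3, was slightly lower in both sets, with log2 differences of -0.14 and -0.12 in the FLW and AI sets. MYC5 (AT5G46830), a factor that acts with these in stamens, stayed between 0.417 and 0.859 FPKM and was not tested.

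COI1 (AT2G39940), the receptor, was level in the FLW set and slightly higher in amiR-SEAP1 in the AI set. It lay at 13.7, 13.7, 14.8 and 15.02 FPKM in amiR-SEAP1 replicates 1 to 4, against 13.8, 13.5, 12.6 and 12.0 FPKM in WT replicates 1 to 4. Its log2 change of 0.13 ± 0.12 (SE) had an adjusted p of 0.838 in limma with the pair correlation. JAR1 (AT2G46370), the enzyme that forms the active isoleucine conjugate, had opposite differences, with FLW pair means of 27.5 FPKM in amiR-SEAP1 and 34.0 FPKM in WT and AI pair means of 39.5 FPKM in amiR-SEAP1 and 26.3 FPKM in WT.

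The JAZ genes encode the repressors that COI1 removes, and many are themselves induced by jasmonate. Both amiR-SEAP1 libraries were below both WT libraries for 9 of the 10 listed JAZ genes in the AI set and for 6 in the FLW set, against 33.8% and 38.2% of all tested genes. Together they summed to 447 to 482 FPKM in the amiR-SEAP1 libraries and to 489.9 to 618 FPKM in the WT libraries. Their median log2 change was -0.23, against 0.03 for all tested genes. Without the WT libraries of the AI set that median was -0.12 (0.00386 for all tested genes), and 3 of the 10 (JAZ5, JAZ6 and JAZ10) lay above 0. Limma with the pair correlation called 0 of the 10 (0.231% of all tested genes higher and 0.0820% lower). Before adjustment, 0 were higher and 2 lower with a p under 0.05 (4.96% and 4.69% of all tested genes). With independent libraries limma called JAZ2 and JAZ12 lower (4.70% of all tested genes).

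JAZ1 (AT1G19180), an early induced repressor gene, lay at 29.3, 30.4, 21.0 and 21.7 FPKM in amiR-SEAP1 replicates 1 to 4, against 30.0, 30.2, 47.7 and 51.4 FPKM in WT replicates 1 to 4. WT replicates 3 and 4 were high, and the other 6 libraries lay between 21.0 and 30.4 FPKM. Its log2 difference was -0.01 in the FLW set and -1.18 in the AI set (pooled change -0.59 ± 0.23, SE, limma's adjusted p = 0.431). JAZ5, JAZ6 and JAZ10 had the same layout, with the WT pair of the AI set above the other 3 pairs by more than the range of those pairs. In the AI set the pair means of JAZ5 (AT1G17380) were 17.2 FPKM in amiR-SEAP1 and 29.4 FPKM in WT, and those of JAZ10 (AT5G13220) were 14.5 FPKM in amiR-SEAP1 and 23.8 FPKM in WT.

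JAZ2 (AT1G74950) differed in both sets instead. It lay at 35.7, 36.2, 29.8 and 30.0 FPKM in amiR-SEAP1 replicates 1 to 4, against 40.8, 43.4, 40.3 and 42.0 FPKM in WT replicates 1 to 4, and every amiR-SEAP1 library was below every WT library. Its log2 change was -0.33 ± 0.13 (SE), with an adjusted p of 0.427 in limma with the pair correlation and of 0.031 with independent libraries. JAZ12 (AT5G20900), a repressor gene that varied little, lay at 71.8, 73.9, 72.3 and 78.6 FPKM in amiR-SEAP1 replicates 1 to 4, against 83.0, 83.2, 85.5 and 88.4 FPKM in WT replicates 1 to 4. Its groups did not overlap either, with a log2 difference of -0.19 in the FLW set and -0.20 in the AI set and an adjusted p of 0.72 in limma with the pair correlation (0.0492 with independent libraries). JAZ9 (AT1G70700), the most abundant of the JAZ genes here, averaged 188 ± 26.3 FPKM in amiR-SEAP1 and 221 ± 39.1 FPKM in WT (SD, n = 2 sets each), and JAZ3 (AT3G17860) averaged 18.5 ± 0.710 FPKM in amiR-SEAP1 and 20.9 ± 0.00408 FPKM in WT (SD, n = 2 sets each). JAZ7 and JAZ8 stayed under 4 FPKM in every library. The log2 difference of JAZ7 was alike in the FLW set (-0.40) and the AI set (-0.39), but its groups overlapped. That of JAZ8 was -0.16 and -0.07.

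**Figure D3:**
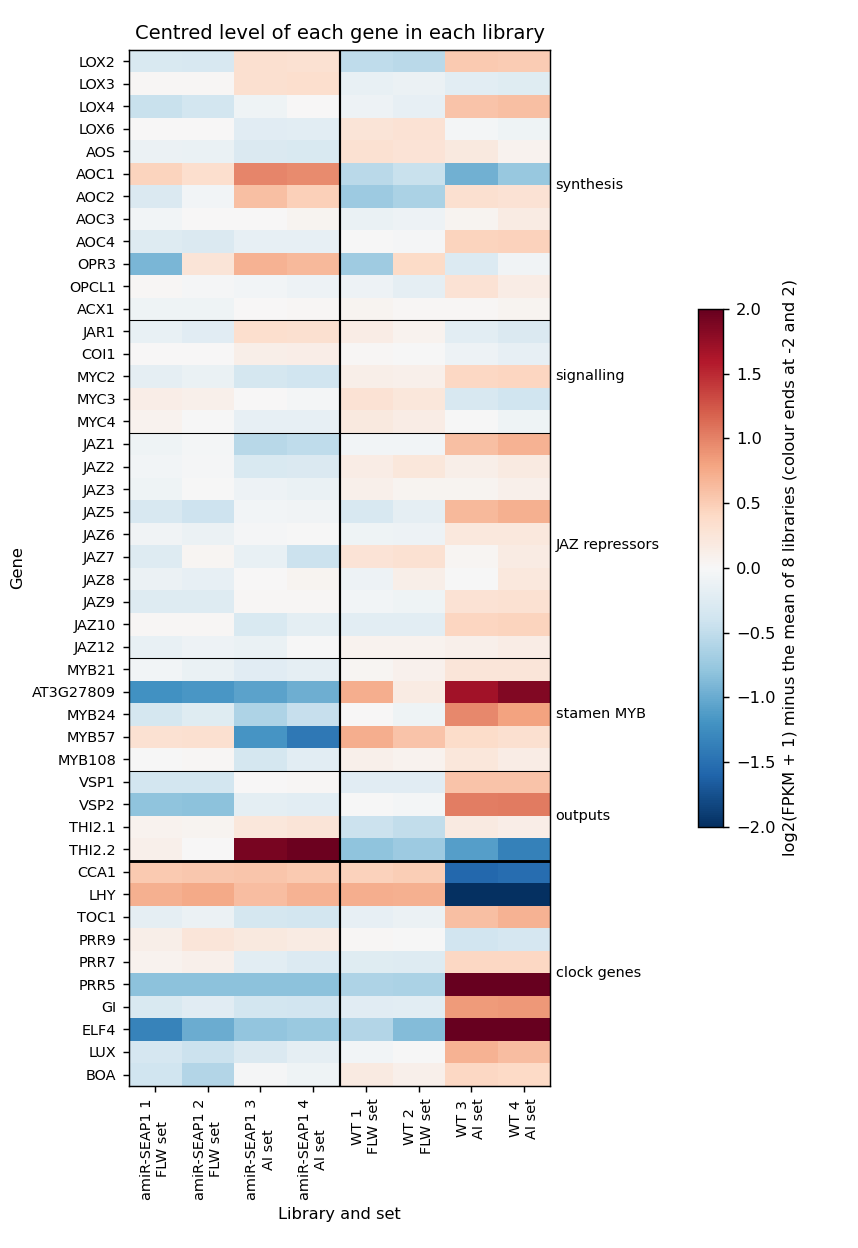
Level of each tested member and of 10 clock genes (rows) in each library (columns, amiR-SEAP1 left of WT), as log2(FPKM + 1) minus the mean of the 8 libraries, red for higher and blue for lower. WT replicates 3 and 4 differ from the other 6 libraries in CCA1, LHY, PRR5 and ELF4, and in the same columns JAZ1, JAZ5, JAZ10, MYB24, VSP1 and VSP2 are red.

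For all 5 genes at the stamen MYB loci both amiR-SEAP1 libraries lay below both WT libraries in each set, by differing amounts (19.9% of all tested genes did so). Of these, MYB21 and MYB24 encode factors that are released from JAZ repression in stamens and drive filament growth and anther maturation. The median log2 difference of the 5 genes was -0.26 in the FLW set and -1.42 in the AI set. All 18 mature pollen genes examined were lower in the FLW set too (median -0.50), and 17 of 18 in the AI set (median -0.36). Of the 20743 tested genes, 10490 were lower in the FLW set and 8640 in the AI set. The part of the pollen genes in the differences of the MYB loci was not tested. Summed, these pollen genes lay at 2185 to 2787 FPKM in amiR-SEAP1 and 2614 to 3904 FPKM in WT.

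MYB21 (AT3G27810), the factor whose loss alone shortens filaments, lay at 86.2, 81.5, 77.0 and 78.9 FPKM in amiR-SEAP1 replicates 1 to 4, against 92.5, 95.2, 106 and 107 FPKM in WT replicates 1 to 4. Every amiR-SEAP1 library was below every WT library, at 0.893 of the WT level in the FLW set and 0.733 in the AI set. Its log2 change was -0.30 ± 0.12 (SE), with an adjusted p of 0.435 in limma with the pair correlation and of 0.0285 with independent libraries.

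AT3G27809, a protein-coding gene that lies wholly within the span of MYB21 in the reference, differed far more than MYB21. It lay at 2.12, 2.23, 2.46 and 2.67 FPKM in amiR-SEAP1 replicates 1 to 4, against 11.0, 7.10, 22.2 and 25.2 FPKM in WT replicates 1 to 4. The amiR-SEAP1 values were low and close to each other, while the WT values were spread between the sets and, in the FLW set, between the libraries of the pair (1.55 times). Its level was 2.46% to 3.39% of that of MYB21 in amiR-SEAP1, against 7.46% to 11.9% in WT of the FLW set and 20.9% to 23.6% in WT of the AI set. The log2 change of -2.21 ± 0.54 (SE) had an adjusted p of 0.161 in limma with the pair correlation and of 0.00809 with independent libraries. With the pair correlation and without WT replicate 2 it passed, at a log2 change of -2.37 and limma's adjusted p of 0.0473. Over the alternatives of this gene the adjusted p lay between 0.00341 and 0.809. The 2 genes overlap, so the division of reads between them is uncertain.

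MYB24 (AT5G40350), which acts with MYB21, lay at 11.5, 12.4, 9.47 and 10.6 FPKM in amiR-SEAP1 replicates 1 to 4, against 15.03, 14.0, 30.1 and 26.9 FPKM in WT replicates 1 to 4. The groups did not overlap, but WT replicates 3 and 4 were well above WT replicates 1 and 2. Its log2 difference was -0.26 in the FLW set and -1.42 in the AI set, and the pooled change was -0.84 ± 0.30 (SE, limma's adjusted p = 0.375). AT5G40348, a long noncoding RNA gene that spans MYB24 in the reference, lay at 31.2, 30.9, 20.6 and 23.5 FPKM in amiR-SEAP1 replicates 1 to 4. In WT replicates 1 to 4 it lay at 23.7, 28.6, 30.0 and 29.3 FPKM. Like MYB24, it was lower in amiR-SEAP1 in the AI set, but it was higher in the FLW set. Reads of MYB24 and AT5G40348 may not have been told apart.

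MYB57 (AT3G01530), the weakest contributor of the trio with MYB21 and MYB24, lay at 13.4, 13.6, 4.11 and 3.30 FPKM in amiR-SEAP1 replicates 1 to 4, against 18.3, 16.2, 14.1 and 13.5 FPKM in WT replicates 1 to 4. Here the amiR-SEAP1 pair of the AI set was the one that stood apart, below the other 3 pairs. The log2 difference was -0.33 in the FLW set and -1.65 in the AI set, with a pooled change of -0.99 ± 0.45 (SE, limma's adjusted p = 0.521). MYB108 (AT3G06490), a factor of stamen maturation that acts after these, averaged 9.46 ± 1.49 FPKM in amiR-SEAP1 and 11.6 ± 0.624 FPKM in WT (SD, n = 2 sets each), and its groups did not overlap.

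Among the outputs, both vegetative storage protein genes were lower in amiR-SEAP1 in both sets, and both thionin genes were higher. The VSP genes encode jasmonate-induced storage proteins that are abundant in flowers. VSP2 (AT5G24770) lay at 173, 172, 265 and 262 FPKM in amiR-SEAP1 replicates 1 to 4, against 302, 295, 616 and 622 FPKM in WT replicates 1 to 4. The groups did not overlap, and amiR-SEAP1 held 0.577 of the WT level in the FLW set and 0.425 in the AI set. The log2 change was -1.01 ± 0.29 (SE), with an adjusted p of 0.233 in limma with the pair correlation, 0.0692 with independent libraries and 0.000451 with the set as a term beside the pair correlation. On the mean of each pair its adjusted p in limma was 0.82.

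VSP1 (AT5G24780), its neighbour and the most abundant member by FPKM, averaged 2213 ± 417 FPKM in amiR-SEAP1 and 2901 ± 1108 FPKM in WT (SD, n = 2 sets each). Its difference was smaller, -0.14 in the FLW set and -0.56 in the AI set on the log2 scale, and its groups overlapped. VSP2 accordingly amounted to 8.96% to 10.6% of VSP1 in the amiR-SEAP1 libraries and to 14.0% to 16.9% in the WT libraries. The VSP genes are similar in sequence, so reads may have been divided between them by the authors' counting.

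THI2.2 (AT5G36910), a thionin gene of the same family as the jasmonate-induced THI2.1, had the largest pooled log2 change upward of the tested members, while in the FLW set alone AOC1 differed more. It lay at 7.24, 6.77, 27.8 and 28.8 FPKM in amiR-SEAP1 replicates 1 to 4, against 3.41, 3.64, 2.60 and 2.03 FPKM in WT replicates 1 to 4. All amiR-SEAP1 libraries were above all WT libraries, and those of the AI set were well above those of the FLW set. The ratio to WT was 1.99 in the FLW set and 12.2 in the AI set. Its log2 change was 1.99 ± 0.50 (SE), with an adjusted p of 0.171 in limma with the pair correlation and of 0.0349 with independent libraries. THI2.1 (AT1G72260), a far more abundant thionin gene, averaged 446 ± 39.4 FPKM in amiR-SEAP1 and 369 ± 110.2 FPKM in WT (SD, n = 2 sets each) and was higher in amiR-SEAP1 in both sets by log2 differences of 0.52 and 0.09.

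Without the WT libraries of the AI set, the changes described for single genes moved by differing amounts on the log2 scale. Every fit without them compares amiR-SEAP1 of both sets with WT of the FLW set alone. A difference between the sets therefore enters these changes. VSP2, for example, was at -0.79 within the FLW set, and its amiR-SEAP1 level was higher by 0.61 in the AI set. Without those WT libraries AOS was at -0.49, JAZ2 at -0.35, JAZ12 at -0.16 and LOX3 at 0.31, all within 0.1 of the change over the 8 libraries. MYB21 (-0.21), MYC2 (-0.37), AT3G27809 (-1.55), THI2.2 (1.76) and MYB57 (-1.14) moved by less than 1.5 times. The change was smaller by over 1.5 times for 8 of the 36 tested members, which were JAZ1 (-0.24), JAZ8 (-0.07), JAZ9 (-0.05), MYB24 (-0.38), VSP2 (-0.48), LOX4 (-0.09), AOC4 (-0.21) and COI1 (0.06). It was larger by over 1.5 times for 6, which were LOX2 (0.53), LOX6 (-0.38), AOC2 (0.86), AOC3 (0.12), MYC4 (-0.24) and THI2.1 (0.61). It had the other sign for 7 members.

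How the members varied among themselves followed single pairs of libraries in many cases. Of the 36 tested members, 12 (33.3%) had the WT pair of the AI set outside the other 3 pairs by more than the range of those pairs, 10 of them with that pair highest and 2 (COI1 and MYC3) with it lowest. Among all tested genes the share was 19.8%. Another 6 members had the amiR-SEAP1 pair of the AI set apart (12.2% of all genes), 2 the WT pair of the FLW set (8.45%) and 2 the amiR-SEAP1 pair of the FLW set (7.61%). Tapetum genes, which mark an earlier stage of the anther, had a median log2 difference of -0.40 in the FLW set and 0.79 in the AI set. The 7 genes listed here for open flowers, CRC among them, had -0.68 and -1.82. All 7 genes on the open flower list were lower in amiR-SEAP1 in the FLW set and 6 in the AI set, where CRC was higher (0.23). Of the 20743 tested genes, 10490 were lower in the FLW set and 8640 in the AI set. Limma with the pair correlation called 1 of the 7 lower, TPS14 (adjusted p of 0.0331), against 0.0820% of all tested genes. Summed, the 17 tapetum genes lay at 1152 to 1663 FPKM in amiR-SEAP1 and 1139 to 1665 FPKM in WT, and the 7 open flower genes at 177 to 253 FPKM in amiR-SEAP1 and 389 to 446 FPKM in WT, where the groups did not overlap. None of the genes on these flower lists was at 0 in every library. Green tissue genes had a median log2 difference of 0.05 in the FLW set and 0.17 in the AI set. The part of these marker lists in the members' values was not tested.

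**Figure D4:**
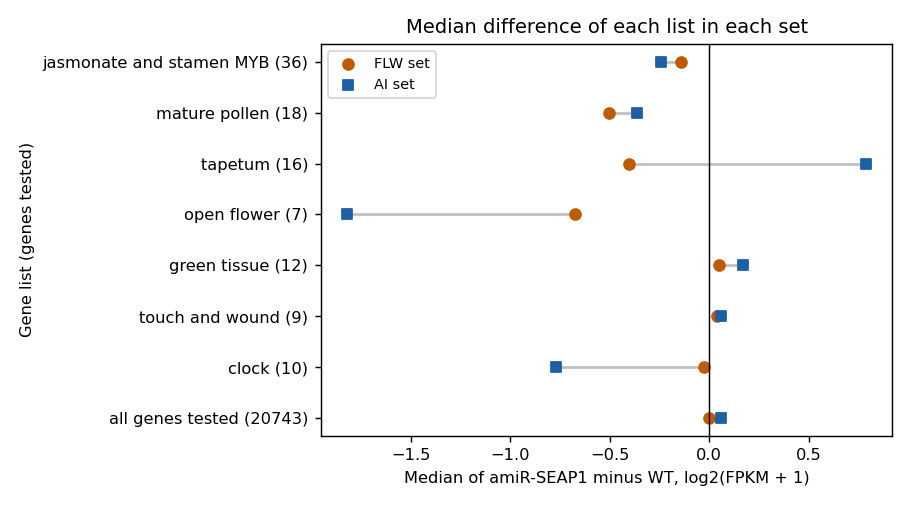
Median difference between the genotypes (amiR-SEAP1 minus WT, log2(FPKM + 1)) of the members, of marker and response gene lists and of all tested genes in the FLW set (circles) and AI set (squares), with the number of genes tested in parentheses. Clock genes lie at -0.03 in the FLW set and -0.77 in the AI set, and tapetum genes lie on opposite sides of 0.

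Clock genes of the FLW set lay on both sides of their median of -0.03, with both amiR-SEAP1 libraries above both WT libraries for 3 of 10 and below them for 5, and single differences between -0.63 (BOA) and 0.34 (PRR7). In that set 2 members were lower by at least 0.5 on the log2 scale (AT3G27809 and VSP2) and 4 were higher (AOC1, AOC2, THI2.1 and THI2.2). All tested genes passed that size in 4.87% of cases downward and 3.01% upward. In the AI set 11 members were lower and 5 higher by as much, against 8.71% and 7.74% of all genes. Both sets passed it for AOC1 and THI2.2 upward (1.49% of all genes) and for AT3G27809 and VSP2 downward (1.57%). With 1 sample per genotype in a set, these differences have no test.

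Limma with the pair correlation called 0 of 14 further synthesis genes and 0 of 9 tested genes of jasmonate turnover. It also called 0 of 10 tested further repressor genes and 0 of 5 tested further output genes. The lists held 0 higher and 2 lower, 0 and 1, 0 and 1, and 1 and 1 with an unadjusted p below 0.05. Among all tested genes 0.231% were called higher and 0.0820% lower, and 4.96% and 4.69% passed the unadjusted p. With independent libraries limma called 5 of these 38 genes lower and 0 higher, against 4.70% and 7.50% of all tested genes. These were KAT2 (AT2G33150), a thiolase of beta-oxidation (log2 change -0.30 ± 0.08, SE), the sulphotransferase gene ST2A (AT5G07010) (-0.78 ± 0.15), AT2G38240 (-0.41 ± 0.07), AT4G00870 (-0.59 ± 0.11) and the tyrosine aminotransferase gene TAT3 (AT2G24850) (-0.78 ± 0.16). Touch and wound response genes are switched on within minutes of handling. Their median log2 difference was 0.04 in the FLW set and 0.06 in the AI set. With independent libraries 1 of 9 tested was called, TCH4, which was higher (1.07 ± 0.22), against 7.50% of all tested genes.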

How the data were processed

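The authors deposited 1 FPKM value per gene and mRNA library (unit named in the column headers). HISAT2 and build TAIR10 stand in the submitters' processing notes; no FPKM program, annotation or strand setting is given in the sources used here. Genotype and replicate came from the titles and the set from the column header. FPKM are not counts, so limma 3.58.1 (R 4.3.3) was fitted with a mean-variance trend to log2(FPKM + 1) of the 20743 genes that averaged 1 FPKM or more, with Benjamini-Hochberg adjustment over all of them. A fold change on that scale understates the change of low genes. The main model treated paired libraries as correlated (estimate 0.906) and held no term for the set. On simulated data with pair effects of the real size, the model with the correlation made more false calls than its nominal rate, the one with independent libraries more still, and the means of pairs few. The simulation drew the effect of each pair separately, without a set effect shared by both genotypes, and did not include the model with the set as a term. It therefore cannot give the rate of false calls in these data. Differences within a set have no test. Members, lists, tests and alternatives were chosen with earlier results of these data known; the fit without the WT libraries of the AI set and the rule for a pair that stands apart were chosen after seeing the data. Values in every library are given for members called in either model, members without overlap and a log2 change of at least 0.5, the 6 members whose sets differ most and 7 genes fixed by name. Deviations from the genotype means correlated between same-numbered libraries (r = 0.398, 0.420, 0.405 and 0.430), which pairs them by number, but 2 of 4 WT libraries matched their own number best, so the pairing follows the sets. Symbols and overlaps between genes came from the RefSeq table of TAIR10.1, in which all 38 members were found; as its build is not the files' own, no coordinates are given. The 4 small RNA libraries were not used here.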

Additional observations from a re-analysis of the deposited data

Results flagged for a closer look

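Of the 36 tested members, 5 (13.9%, against 18.3% of all tested genes) had both amiR-SEAP1 libraries on one side of both WT libraries in the FLW set and on the other side in the AI set; none of these differences between sets was tested, since each set holds 1 sample per genotype. LOX2 had a log2 difference of 0.21 in the FLW set and -0.20 in the AI set, OPCL1 of 0.14 and -0.29, and JAZ10 of 0.23 and -0.68. JAR1 had -0.30 in the FLW set and 0.57 in the AI set, and MYC3 -0.14 and 0.34. In OPCL1, MYC3 and JAZ10 the WT pair of the AI set was the pair that stood apart, as in 8 of 10 clock genes. Dixon's ratio (the gap of the highest or lowest library to its nearest neighbour over the range of the 4 libraries) passed its 95% critical value in 0 of the 72 groups of 4 libraries tested, OPR3 in amiR-SEAP1 included, where replicate 1 lay at 12.2 FPKM and the others at 28.7 to 39.5 FPKM. As the libraries come in pairs, this ratio has little chance to pass.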

How the results depend on the processing

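Over all genes, the main model called 48 higher and 17 lower. It called 1556 and 975 with independent libraries, 1543 and 1575 with the set as a term and the pair correlation, 2852 and 2306 with the replicate block, 142 and 71 with no filter on low values, 13 and 3 with a filter at a mean of 5 FPKM, 21 and 4 without a mean-variance trend, 24 and 5 without both WT libraries of the AI set, and 0 and 0 on the mean of each pair, with or without the set as a term. Leaving out 1 library gave 13 to 21 higher and 1 to 4 lower. Members called were 0 higher and 0 lower in the main model, 3 and 6 with independent libraries, 3 and 13 with the set as a term and the pair correlation, 4 and 12 with the replicate block, and 0 higher with 0 to 1 lower without 1 library, the 1 being AT3G27809 without WT replicate 2. In the model with independent libraries, members called were 5 higher and 19 lower with the set as a term. They were 12 lower with the replicate block (11.1% of all tested genes), and 1 to 3 higher and 2 to 6 lower without 1 library. For the set term and for leaving out 1 library, the share of all tested genes called was not taken. Those counts therefore cannot be set against it.

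Log2 changes near 0 changed sign in a few settings: AOC3 was at -0.012 under quantile normalization, and leaving out 1 library put LOX2 between -0.0089 and 0.022 and AOC3 between -0.015 and 0.040. Without both WT libraries of the AI set, 7 members changed sign: OPCL1 (0.10), JAR1 (-0.045), MYC3 (-0.21), JAZ5 (0.033), JAZ6 (0.045), JAZ10 (0.10) and VSP1 (0.051), and the other 29 kept their direction. In that fit amiR-SEAP1 alone holds the AI set, so differences between the sets enter these signs. VSP1 (-0.14 in the FLW set and -0.56 in the AI set) and JAZ5 (-0.12 and -0.74) were lower in amiR-SEAP1 within both sets. OPCL1, JAR1, MYC3, JAZ6 and JAZ10 differed in sign between the sets. The causes of single sign changes were not tested. At these depths DAD1 and MYC5 lay under the filter, so a change in them was not detectable. Scaling to the same FPKM sum moved the median change of all genes to 0.06, from 0.03.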

Other observations

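The 5 genes named here were chosen after their values were seen. AT3G22275, on the list of further repressor genes, lay at 5.92, 5.76, 7.65 and 6.29 FPKM in amiR-SEAP1 replicates 1 to 4, against 5.96, 7.23, 36.0 and 33.2 FPKM in WT replicates 1 to 4, so the WT pair of the AI set stood apart from 6 libraries that lay within 5.76 to 7.65 FPKM. CYP94C1 (AT2G27690), of jasmonate turnover, also had its highest values in that pair, at 3.24 and 2.81 FPKM, against 1.102 to 2.12 FPKM elsewhere, as did JMT (AT1G19640), a jasmonate methyltransferase gene, at 36.2 and 35.2 FPKM against 24.4 to 28.2 FPKM. JR1 (AT3G16470), a jasmonate-responsive lectin gene that is no member, was higher in amiR-SEAP1 in both sets by nearly the same log2 difference (0.58 in the FLW set and 0.61 in the AI set), at 204 ± 67.4 FPKM in amiR-SEAP1 and 134 ± 42.2 FPKM in WT (SD, n = 2 sets each). NINJA (AT4G28910), the adaptor between JAZ proteins and a corepressor, resembled OPR3 in differing between libraries of a pair, by 1.48 times in amiR-SEAP1 of the FLW set and 1.45 times in amiR-SEAP1 of the AI set.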
